A study of Homo sapiens with 60 samples.

Results

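The nuclear genes described here make the proteins that transcribe the mitochondrial genome and then protect, mature or degrade its RNA. They were chosen by name, as 10 symbols, and all 10 were found among the 60675 genes of the deposited table and among the 16484 genes that were tested. The cells were HT29, a human colorectal adenocarcinoma line, treated for 24 h with water extracts of herbs or herb mixtures, and gene expression was counted by RNA sequencing. The single herbs were processed aconite root, bupleurum root, cimicifuga rhizome and citrus peel, and the mixtures were the formulas Banhasasim-tang, Yijung-tang and Bojungikgi-tang, each given at 20, 100 and 500 µg/mL (low, medium and high dose). The comparison group was the vehicle, dimethyl sulfoxide, at 0.1% in the sample labels and 2% in the design text. Each dose of 6 extracts, and vehicle, had 3 libraries, which gave 19 groups with 57 libraries, and Bojungikgi-tang had 1 library per dose and entered no test. The labels do not say that replicates were separate cultures, so p-values measure the spread between libraries only, which may be technical.

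The mitochondrial genome is read by its own single-subunit RNA polymerase into long transcripts that are cut into messages, rRNAs and tRNAs. TFAM packages the DNA and bends it at the promoters, TFB2M opens the DNA for the polymerase POLRMT, TEFM keeps the polymerase moving, and MTERF1 binds downstream of the rRNA genes and stops it. Once made, messages are held stable and polyadenylated by the complex of LRPPRC and SLIRP, the helicase SUPV3L1 and the exonuclease PNPT1 degrade RNA, and TFB1M methylates the small rRNA so that ribosomes can form.

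Total counts ran between 10.35 and 40.05 M per library, with 23.83 M as the median. All titles carry the label BatchB. Codes in the sample descriptions were read as library sets, which the labels do not state, and vehicle is alone in its set. Each comparison with vehicle is therefore also one between sets, and the effects of set and extract cannot be told apart there, whereas aconite with bupleurum, Banhasasim-tang with Yijung-tang and cimicifuga with citrus peel share sets. RN7SL2 RNA did not follow the codes, with 5.57, 9.90 and 102 CPM in the 3 citrus peel high libraries. Vehicle had 9.37, 6.55 and 4.94 CPM of it. With a term for RN7SL2 above 20 CPM, 0 factors passed in citrus peel and cimicifuga against vehicle, as without it. The 9 epithelial markers were all above 1 CPM, with a sum of 10042 to 13576 CPM per library. Fibroblast markers summed to 1.54 to 3.00 CPM with COL1A1 alone at or above 1 CPM, endothelial markers to 0.927 to 2.67 CPM, and PTPRC and CD3E of leukocytes averaged 0.0184 and 0.00467 CPM, whereas LYZ averaged 1683 CPM. In bulk RNA, fewer cells of a type and less RNA per cell cannot be told apart. All 10 genes passed the filter on low counts, with between 104 (TFB1M) and 11515 (LRPPRC) counts in single libraries.

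Factors of this machinery are classically tied to nuclear respiratory factor 1 (NRF1) and to GABPA, an ETS factor, which bind many promoters of mitochondrial genes. Promoter windows of 250 bases before to 50 after the start were taken from RefSeq (GRCh38.p14). All 10 members matched, with 11 windows, since SLIRP has 2. The windows were searched on both strands for GCGCATG, the core of the NRF1 half-site, and CCGGAAG, the core of the GABPA site. The windows of the 3 members that passed a test below (LRPPRC, TFB1M and SUPV3L1) are printed with those of POLRMT and TFB2M, which hold NRF1 cores. Capitals mark either core, and cores that overlap run together.

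LRPPRC: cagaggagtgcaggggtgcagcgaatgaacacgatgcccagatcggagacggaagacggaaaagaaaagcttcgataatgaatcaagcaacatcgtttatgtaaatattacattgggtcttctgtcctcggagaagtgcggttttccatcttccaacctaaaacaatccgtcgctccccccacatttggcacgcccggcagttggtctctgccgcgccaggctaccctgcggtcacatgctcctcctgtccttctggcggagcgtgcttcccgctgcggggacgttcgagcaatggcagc

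TFB1M: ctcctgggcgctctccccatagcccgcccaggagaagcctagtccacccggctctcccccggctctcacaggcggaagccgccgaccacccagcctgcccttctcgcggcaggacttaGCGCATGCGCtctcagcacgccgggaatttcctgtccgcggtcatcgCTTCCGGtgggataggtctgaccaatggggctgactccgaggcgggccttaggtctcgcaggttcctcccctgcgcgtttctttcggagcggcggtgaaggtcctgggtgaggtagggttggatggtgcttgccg

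SUPV3L1: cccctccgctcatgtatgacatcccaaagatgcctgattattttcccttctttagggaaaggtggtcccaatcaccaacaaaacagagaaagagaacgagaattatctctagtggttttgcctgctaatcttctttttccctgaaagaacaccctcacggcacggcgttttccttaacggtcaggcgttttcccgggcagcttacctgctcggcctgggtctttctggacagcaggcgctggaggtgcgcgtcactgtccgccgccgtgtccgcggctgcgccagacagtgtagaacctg

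POLRMT: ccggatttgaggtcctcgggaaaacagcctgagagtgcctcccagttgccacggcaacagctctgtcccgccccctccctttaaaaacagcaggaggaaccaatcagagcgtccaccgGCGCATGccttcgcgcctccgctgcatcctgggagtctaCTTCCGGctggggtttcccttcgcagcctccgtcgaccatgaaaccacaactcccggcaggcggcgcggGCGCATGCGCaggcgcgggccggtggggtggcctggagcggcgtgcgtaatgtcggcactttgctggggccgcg

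TFB2M: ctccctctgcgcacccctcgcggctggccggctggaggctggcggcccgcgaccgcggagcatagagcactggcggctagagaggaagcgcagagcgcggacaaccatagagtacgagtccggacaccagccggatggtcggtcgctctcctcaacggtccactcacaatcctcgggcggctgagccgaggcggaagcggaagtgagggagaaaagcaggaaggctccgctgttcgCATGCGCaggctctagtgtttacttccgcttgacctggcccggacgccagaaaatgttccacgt

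The printed windows lie at chr2:43995940-43996239 (LRPPRC, minus strand), chr6:155314435-155314734 (TFB1M, minus), chr10:69179984-69180283 (SUPV3L1, plus), chr19:633488-633787 (POLRMT, minus) and chr1:246566212-246566511 (TFB2M, minus). NRF1 cores stood in 3 of the 10 members. POLRMT had 3 matches, of which 2 overlap on opposite strands, TFB1M had 2 overlapping matches and TFB2M had 1. Over all 27305 RefSeq genes with windows of the same length, 5.3% held this core in at least 1 window (4.43% of 35116 windows). GABPA cores stood in 5 members, namely POLRMT, TFB1M, TEFM, MTERF1 and SLIRP, against 12.2% of all genes (10.3% of windows). POLRMT and TFB1M held both cores, and TFAM, LRPPRC, SUPV3L1 and PNPT1 held neither in these windows. A match is a run of letters and was not tested for binding.

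Levels of the factors differed widely from gene to gene. Per kilobase of exon, in counts per 1 M (CPM) on scaled library totals, LRPPRC stood highest in vehicle at 27.2 ± 1.68 CPM per kb (SD, n = 3, as for all means here). Next came TFAM at 21.1 ± 0.574, SLIRP at 19.1 ± 2.73 and TFB2M at 18.4 ± 0.722 CPM per kb. PNPT1 had 13.8 ± 0.237, SUPV3L1 10.3 ± 0.494 and POLRMT 8.31 ± 0.208 CPM per kb. TFB1M (4.15 ± 0.214), TEFM (3.64 ± 0.512) and MTERF1 (3.23 ± 0.44) were lowest. The 3 libraries of SLIRP overlapped those of its neighbours TFAM and TFB2M, whereas TFAM lay above TFB2M in all libraries. TEFM overlapped both TFB1M and MTERF1, whereas TFB1M lay above MTERF1 in all libraries. The length used is the union of all annotated exons, 2.63 kb for SLIRP and 9.76 kb for LRPPRC, and not that of the transcripts made. The order of genes depends on it, and which transcripts were made was not tested.

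**Figure D1:**
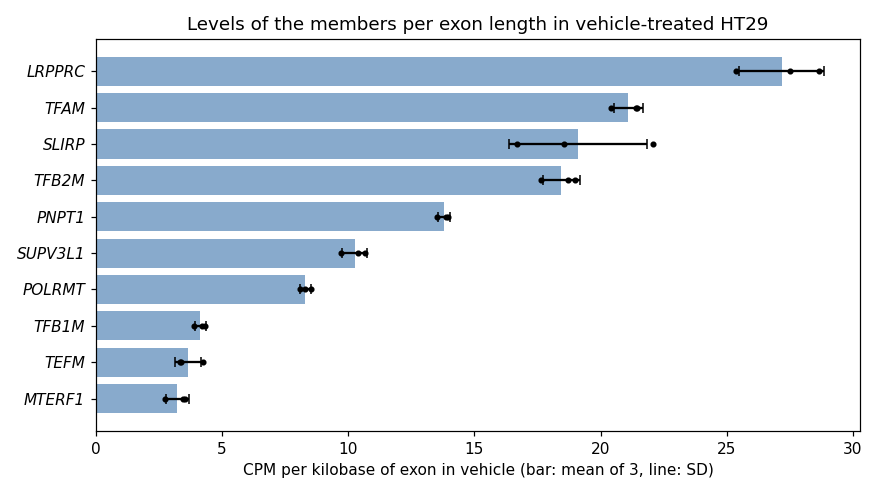
Level of each of the 10 factors in vehicle-treated HT29 cells, in CPM per kilobase of exon (union of all annotated exons, on which the order of genes depends). Bars are means of 3 libraries, lines the SD and points the libraries. LRPPRC stands at 27.2 and MTERF1 at 3.23 CPM per kb.

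Levels barely moved between treatments. On the log2 scale the distance from the lowest to the highest of the 19 group means was 0.19 for TFAM and 0.48 for SLIRP, the extremes among the 10, against a median of 0.41 over all genes tested. TFB1M (0.48) and SLIRP lay above that median, and the other 8 lay below it.

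POLRMT, the polymerase (chromosome 19, 617224 to 633604, minus strand, GRCh38), had group means from 38.2 CPM in the medium doses of both Yijung-tang and Banhasasim-tang to 45.4 ± 2.58 CPM in citrus peel high. Its vehicle libraries had 43.7, 42.5 and 41.5 CPM. At the medium dose of Yijung-tang it had 36.9, 37.1 and 40.6 CPM, all below vehicle, as were 13.2% of all genes tested. The log2 fold change of -0.16 ± 0.08 (SE) did not pass (quasi-likelihood test in edgeR, p adjusted after Benjamini and Hochberg = 0.25).

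TFAM, the packaging and initiation factor (chromosome 10, 58385022 to 58399221, plus strand), was the steadiest member. Vehicle libraries had 120.2, 114.6 and 120.1 CPM, and group means ran from 112 ± 5.54 CPM in citrus peel medium to 128 ± 4.42 CPM in Banhasasim-tang high. At the high dose of Banhasasim-tang TFAM had 127.0, 132.9 and 124.3 CPM, above every vehicle library, as were 6.6% of all genes tested. Its adjusted p was 0.416 or more in all its comparisons with vehicle (edgeR). TFB2M, which opens the promoter (chromosome 1, 246540560 to 246566324, minus strand), had 34.6, 32.6 and 35.1 CPM in vehicle. Its log2 fold changes against vehicle were negative in 16 of 18 comparisons, -0.18 to 0.05, and 0 passed in edgeR, 0 also at an unadjusted p under 0.05 and 0 in DESeq2.

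TEFM, the elongation factor (chromosome 17, 30897336 to 30906820, minus strand), had 10.7, 10.8 and 13.6 CPM in vehicle and group means between 10.8 ± 0.806 CPM in citrus peel high and 13.8 ± 3.29 CPM in Banhasasim-tang high. Of its exon bases 26.1% also lie in exons of genes on the opposite strand (ADAP2 and an antisense RNA), and whether counting used the strand is not given in the sources used here, so its level is less certain. MTERF1, the termination factor (chromosome 7, 91692008 to 91880720, minus strand), had 13.3, 17.3 and 16.9 CPM in vehicle, the lowest mean of the 19 groups. Its highest mean was 19.2 ± 1.64 CPM in Banhasasim-tang high, and the library that set the vehicle mean low was vehicle 1.

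TFB1M, the rRNA methyltransferase (chromosome 6, 155257509 to 155314493, minus strand), ran from 9.56 ± 0.82 CPM in Yijung-tang low to 13.4 ± 2.3 CPM in aconite high, with 11.8, 11.5 and 10.7 CPM in vehicle. It shares 7.9% of its exon bases with TIAM2 on the opposite strand. SLIRP, the small partner of LRPPRC (chromosome 14, 77708071 to 77761104, plus strand), had the widest spread between libraries, from 34.6 to 88.9 CPM. Of its exon bases 10.5% lie in exons of C14orf178 on the same strand and 4.5% in those of SNW1 on the other, so its reads are less certain as well.

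LRPPRC (chromosome 2, 43886508 to 43996005, minus strand) had 247.5, 268.5 and 279.8 CPM in vehicle, again the lowest mean of all 19 groups, and up to 307 ± 5.68 CPM in Yijung-tang medium. SUPV3L1, the helicase (chromosome 10, 69180232 to 69209099, plus strand), ran from 40.0 ± 0.619 CPM in citrus peel low to 48.0 ± 4.76 CPM in aconite high, with 44.5, 41.6 and 45.7 CPM in vehicle. PNPT1, the exonuclease (chromosome 2, 55634265 to 55693910, minus strand), had 69.4, 71.3 and 71.7 CPM in vehicle and group means from 68.7 ± 2.01 CPM in Yijung-tang high to 79.3 ± 10.3 CPM in aconite high. The annotation lists 2 pseudogene copies each of TFAM and PNPT1 and 1 of POLRMT, between which counting could share reads.

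**Figure D2:**
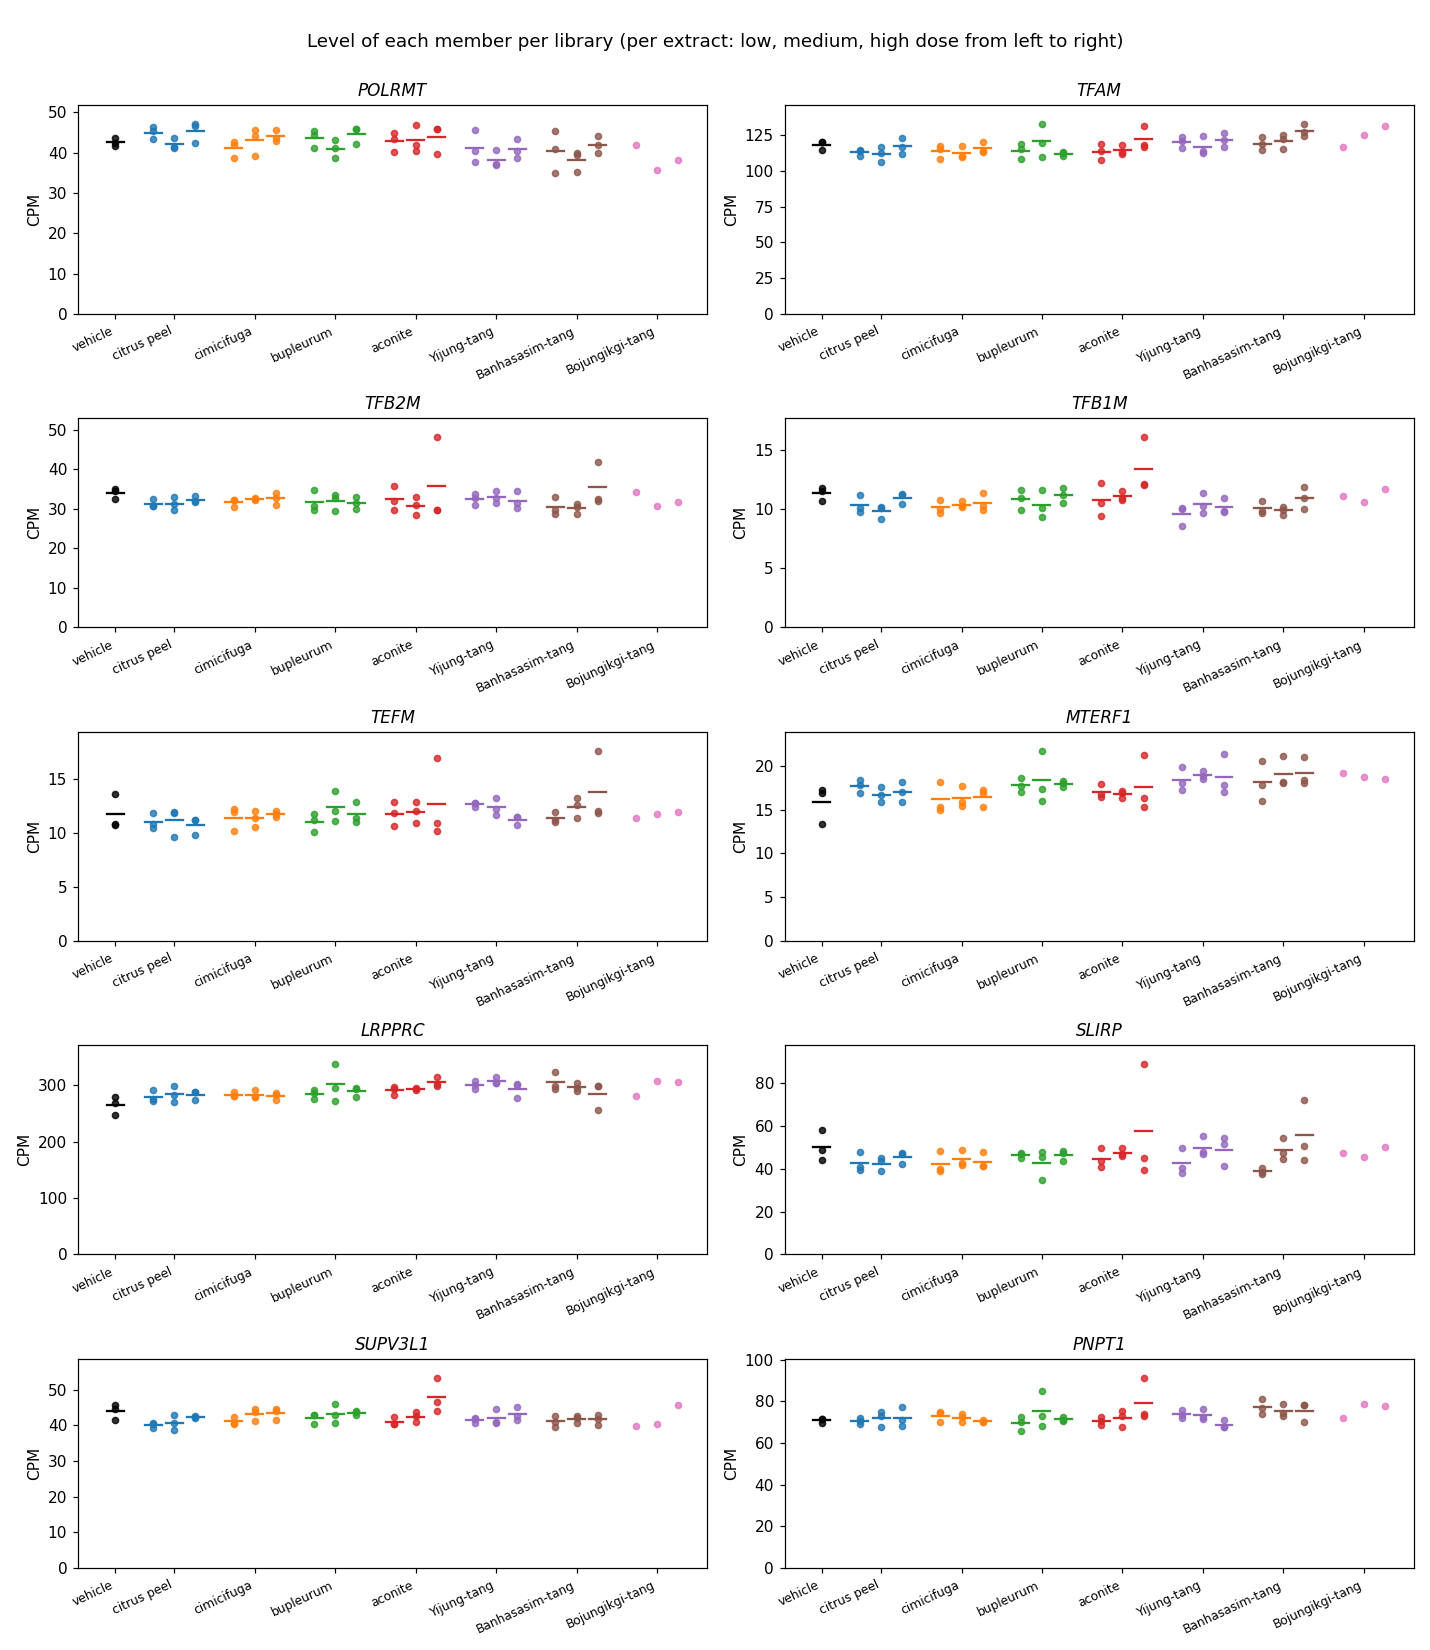
Level of each factor in CPM (y axis, from 0) in every library, by extract, with vehicle at the left and the low, medium and high doses of each extract from left to right. Points are libraries and bars are means of 3. One aconite high library stands out in SLIRP, at 88.9 CPM, and in TFB2M, at 48.1 CPM.

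Against vehicle, 3 of the 180 tests of a factor in an extract and dose passed (edgeR, adjusted p under 0.05 over all genes tested), and all 3 were LRPPRC. LRPPRC rose at aconite high, where its libraries had 299.6, 302.5 and 314.2 CPM against 247.5, 268.5 and 279.8 CPM in vehicle (log2 fold change 0.20 ± 0.06, edgeR adjusted p = 0.012). It rose at Yijung-tang medium, with 304.0, 304.1 and 313.9 CPM (0.21 ± 0.06, edgeR adjusted p = 0.0443). It also rose at Banhasasim-tang low, with 299.0, 323.2 and 293.7 CPM (0.20 ± 0.06, edgeR adjusted p = 0.0448). In each of these the treated libraries all lay above the vehicle libraries, as did those of 10.5%, 12.6% and 14.4% of all genes tested. At an unadjusted p under 0.05 the count was 23 of 180, and DESeq2 called 5, all LRPPRC. Of all 16484 genes, 1058 (cimicifuga medium) to 4602 (aconite high) had an unadjusted edgeR p under 0.05 per comparison. These 2 comparisons held 0 and 4 of the 10 factors at that level, and no excess of factors is read from the 23. When each fit held just the 2 groups compared, 0 of 180 passed.

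The shares of all tested genes called in the same comparisons give the background. From low to high dose aconite called 1.61%, 4.67% and 15.9% of genes against vehicle, and 0, 0 and 1 of the 10 factors. Bupleurum called 0.801%, 0.406% and 1.52%, with 0 factors at each dose. Banhasasim-tang called 2.92%, 3.11% and 1.21%, with 1, 0 and 0 factors. Yijung-tang called 1.51%, 1.64% and 1.14%, with 0, 1 and 0 factors. Cimicifuga called 0%, 0.0303% and 1.33%, and citrus peel 0.00607%, 0% and 0.0243%, with 0 factors at each dose. A single factor of 10 in aconite high is thus no more than the background share, and with 1 or 0 factors called in each comparison no excess is read from these counts. Where the background was 0, an unadjusted p under 0.05 was reached by 1387 genes in cimicifuga low and 1607 in citrus peel medium, where DESeq2 called 4 and 9.

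The LRPPRC and MTERF1 values share a feature of the vehicle group. Both had a positive log2 fold change in all 18 comparisons with vehicle, 0.08 to 0.21 for LRPPRC and 0.03 to 0.27 for MTERF1, and these comparisons use the same 3 vehicle libraries. Vehicle 1 was the lowest vehicle library of both genes, below its group mean by 0.10 (LRPPRC) and 0.24 (MTERF1) on the log2 scale. In the same library, messages of cytosolic ribosomal proteins lay above the group mean by a median of 0.23 (77 genes), and across genes the deviation fell with exon length (Spearman rho -0.34). LRPPRC has the longest exon sequence of the 10, 9.76 kb, and MTERF1 has 4.89 kb. TFAM, PNPT1 and POLRMT (5.61, 5.13 and 5.12 kb) deviated by 0.02, -0.03 and 0.04 in vehicle 1. In aconite high 2, where the deviation also fell with exon length (rho -0.28), LRPPRC deviated by -0.01. Whether exon length bears on these values was not tested. Without vehicle 1 the LRPPRC log2 fold changes were 0.15 at aconite high (edgeR adjusted p = 0.0934), 0.16 at Yijung-tang medium (0.404) and 0.15 at Banhasasim-tang low (0.407), so that 0 of the 180 tests passed. With vehicle 1, aconite high 2, Banhasasim-tang high 2 and bupleurum medium 2 all left out, 2 of the 180 passed. Leaving out vehicle 2 ended both the Yijung-tang and the Banhasasim-tang call (edgeR adjusted p = 0.0824 and 0.077), and leaving out any 1 of the 3 treated libraries of either ended the call of that comparison. The aconite call held without each of the other 5 libraries of its comparison. The Yijung-tang and Banhasasim-tang calls were also lost without some libraries outside their comparisons, such as cimicifuga high 1.

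The precision limits what could have been missed. The 95% intervals of the fold change use the estimate of spread shared by all 19 groups. In 179 of the 180 tests the interval lay within 1.5-fold in either direction, and in all 180 within 2-fold. The exception was SLIRP at Banhasasim-tang low, which had 40.6, 38.7 and 37.7 CPM against 58.1, 48.8 and 43.9 CPM in vehicle. Its log2 fold change was -0.36 with an interval of -0.71 to -0.02 and did not pass (edgeR adjusted p = 0.229). All treated libraries lay below all vehicle libraries, as did those of 13.9% of all genes tested. TFB1M was negative against vehicle in 17 of 18 comparisons (-0.23 to -0.02 in these, lowest at Yijung-tang low), and 0 passed in edgeR (4 at an unadjusted p under 0.05, 0 in DESeq2). The root mean square deviation of genes from the group mean (log2) was 0.41, 0.61 and 0.37 in the aconite high libraries. In bupleurum high it was 0.26, 0.24 and 0.26. At aconite high, leaving out library 2 moved SLIRP against vehicle from 0.18 to -0.25 and TFB2M from 0.05 to -0.21. The intervals may thus be too narrow there.

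**Figure D3:**
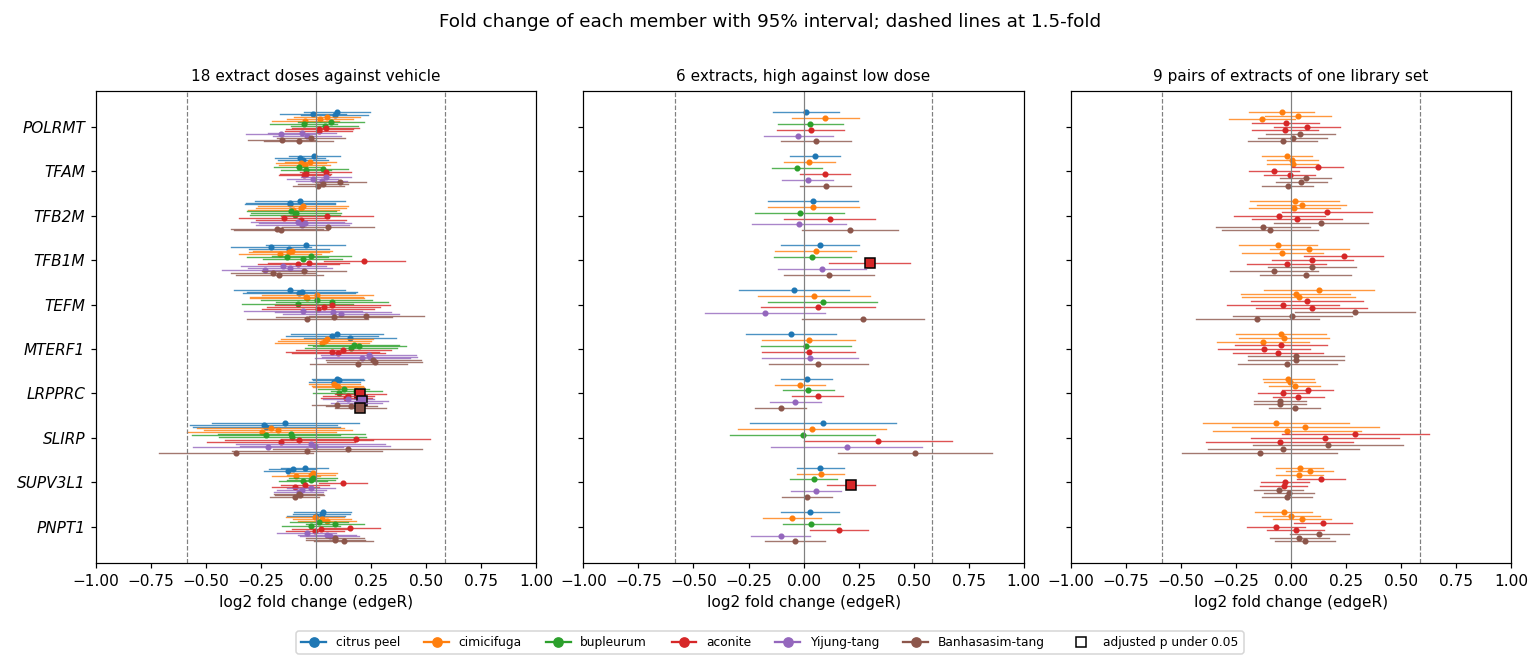
Log2 fold change (x axis) of each factor with its 95% interval in 18 comparisons with vehicle, 6 of high with low dose and 9 of extracts of the same library set. Squares mark the 5 that passed (adjusted p under 0.05, edgeR), and dashed lines stand at 1.5-fold. LRPPRC and MTERF1 lie right of 0 in all 18 comparisons with vehicle, and the widest intervals are those of SLIRP.

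High against low dose is free of the difference between library sets, since both doses of an extract lie in the same set. Of 60 tests, 2 passed, both in aconite, where 10.8% of all genes were called. SUPV3L1 rose, with 44.1, 53.3 and 46.5 CPM at the high dose against 40.4, 40.4 and 42.4 CPM at the low dose (log2 fold change 0.22 ± 0.05, edgeR adjusted p = 0.00559). TFB1M rose, with 12.1, 16.1 and 12.1 CPM against 9.46, 10.6 and 12.2 CPM (0.30 ± 0.09, edgeR adjusted p = 0.0248). All high-dose libraries of SUPV3L1 lay above the low-dose libraries, whereas those of TFB1M overlapped. PNPT1, the partner of SUPV3L1 in RNA decay, had 73.7, 91.2 and 73.0 CPM against 72.4, 68.5 and 70.4 CPM, without overlap, and did not pass (0.16 ± 0.07, edgeR adjusted p = 0.111). In all, 3 of the 10 factors lay wholly above the low dose and 0 wholly below, against 9.87% of all genes tested on each side. The count of 2 of 10 stands beside the 10.8% of all genes, and all 10 log2 fold changes were positive, with a median of 0.11 against 0.01 over all genes tested.

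Aconite high 2 carried much of these values. In that library SLIRP lay above the group mean by 0.72 on the log2 scale, TFB2M by 0.46, TEFM by 0.46, MTERF1 by 0.29, TFB1M by 0.27 and PNPT1 by 0.21, whereas POLRMT lay below it by 0.14. Ribosomal protein messages lay above the group mean by a median of 0.53 and the deviation fell with exon length (rho -0.28). Without it, TFB1M at high against low dose had a log2 fold change of 0.17 (edgeR adjusted p = 0.298), SUPV3L1 0.14 (0.12) and PNPT1 0.05 (0.762). SUPV3L1 passed when the 4 libraries that stand apart, aconite high 2 among them, were all left out (0.15, edgeR adjusted p = 0.0358). Without aconite high 2 the sign turned in 4 of the 10, to -0.09 for SLIRP (0.34 ± 0.17 with all libraries, edgeR adjusted p = 0.194), -0.13 for TFB2M, -0.16 for TEFM and -0.11 for MTERF1, and the median over the 10 was 0.04. TFB1M was also lost without aconite low 1 (edgeR adjusted p = 0.199) or low 2 (0.084). With only both dose groups in the fit, neither passed (edgeR adjusted p = 0.518 for SUPV3L1 and 0.588 for TFB1M), nor with the replicate block (0.0928 and 0.194). That block was fitted on this library set alone, and deviations of same-numbered libraries of the 2 doses correlated at r of 0.232, -0.499 and -0.566.

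In the other extracts 0 of 50 tests passed in edgeR, 1 of them had an unadjusted p under 0.05, and DESeq2 called 0. The background of all genes was 0.297% in bupleurum, 0.904% in cimicifuga, 0.0667% in citrus peel, 0.103% in Yijung-tang and 0.231% in Banhasasim-tang. In Banhasasim-tang 3389 of all 16484 genes had an unadjusted p under 0.05 (edgeR). The case with an unadjusted p under 0.05 was SLIRP in Banhasasim-tang, with 50.7, 72.1 and 44.4 CPM at the high dose against 40.6, 38.7 and 37.7 CPM at the low dose. Its log2 fold change was 0.51 with an interval of 0.16 to 0.86 (edgeR adjusted p = 0.136). The high-dose libraries all lay above the low-dose libraries, as did those of 7.24% of all genes tested, and Banhasasim-tang high 2 held the value of 72.1 CPM. This library resembled aconite high 2 in its ribosomal protein messages (median deviation 0.43) and its length trend (rho -0.40). In it SLIRP, TEFM and TFB2M lay above the group mean by 0.40, 0.37 and 0.25 and LRPPRC lay below it by 0.15. Without it the log2 fold change of SLIRP was 0.28 (edgeR adjusted p = 1). SLIRP passed without Banhasasim-tang high 3 (0.66, edgeR adjusted p = 0.0178), where 2990 of all genes were called, against 38 with all libraries. It also passed without aconite high 2, which shares only the estimate of spread with this comparison (0.51, edgeR adjusted p = 0.0329). LRPPRC, positive throughout against vehicle, lay between -0.10 and 0.06 in high against low dose.

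**Figure D4:**
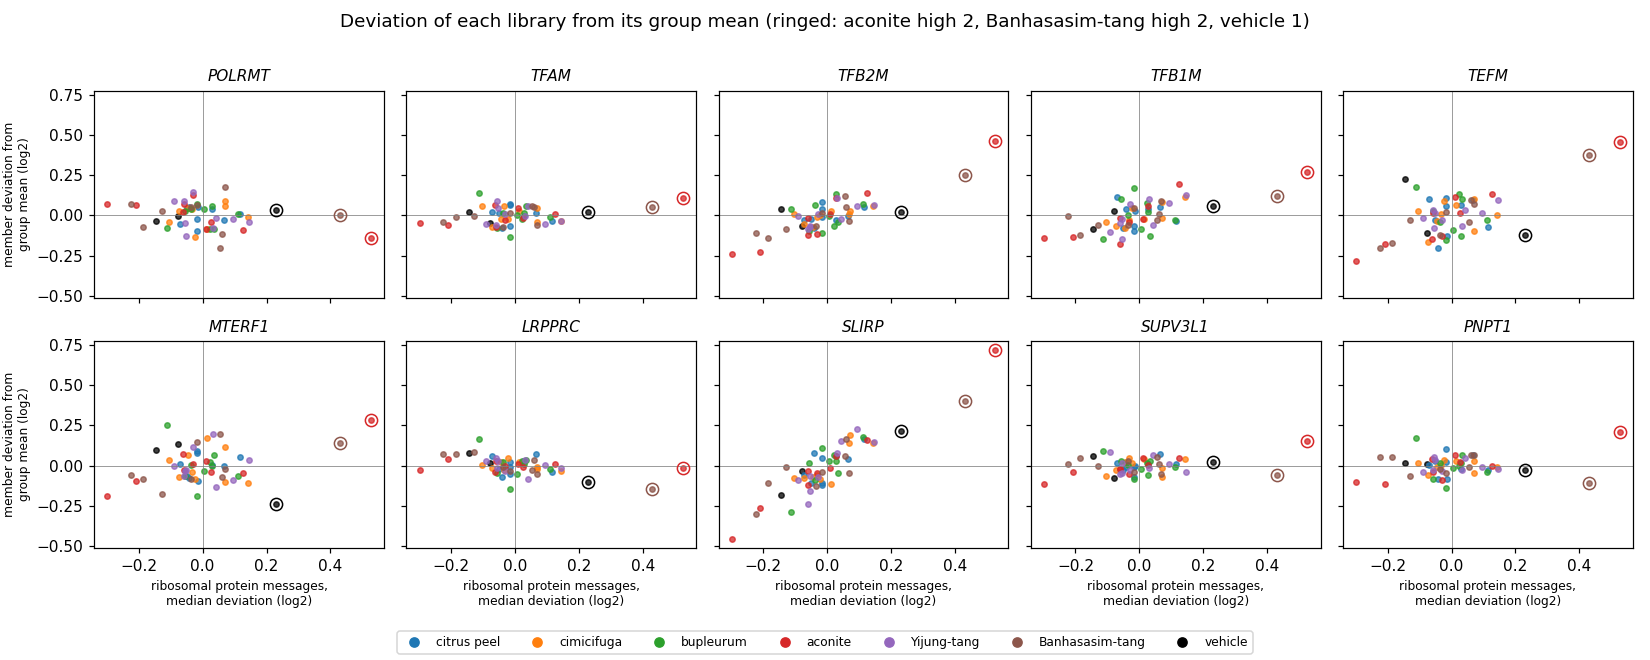
Deviation of each factor (y axis, log2) in each of the 57 libraries from its group mean, against the median deviation of 77 ribosomal protein messages in the same library (x axis, log2). Ringed are aconite high 2, Banhasasim-tang high 2 and vehicle 1. SLIRP, TFB2M and TEFM are high in the first 2 of these, by up to 0.72, 0.46 and 0.46, and LRPPRC is low in vehicle 1, by 0.10.

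Extracts of the same library set were compared at matched dose in 9 pairs. None (0) of 90 tests passed in edgeR, 5 had an unadjusted p under 0.05, and DESeq2 called 0. Aconite against bupleurum called 0.127%, 1.57% and 9.86% of all genes from low to high dose, and 4 of the 5 tests fell in the high dose. At that dose 4083 of all 16484 genes had an unadjusted p under 0.05. TFB1M had 12.1, 16.1 and 12.1 CPM in aconite high against 10.5, 11.2 and 11.8 CPM in bupleurum high (log2 fold change 0.24 ± 0.09, edgeR adjusted p = 0.0776). SUPV3L1 had 44.1, 53.3 and 46.5 CPM against 42.8, 43.7 and 43.9 CPM (0.14 ± 0.05, edgeR adjusted p = 0.101). PNPT1 (0.14 ± 0.07) and TFAM (0.12 ± 0.06) were the other two, and the libraries of the 2 extracts did not overlap in any of these 4 genes. In all, 5 of the 10 factors lay wholly above bupleurum high and 0 wholly below, against 10.6% and 10.4% of all genes tested. Without aconite high 1, TFB1M, SUPV3L1, PNPT1 and SLIRP passed (edgeR adjusted p = 0.0249, 0.014, 0.0473 and 0.0297), and without aconite high 3 TFB1M (0.0264) and PNPT1 (0.0349) did. The fit without aconite high 1 called 3074 of all genes in this comparison, against 1625 with all libraries. Without aconite high 2, the log2 fold changes were 0.11 for TFB1M (edgeR adjusted p = 0.648), 0.054 for SUPV3L1 (0.731), 0.031 for PNPT1 (0.899) and 0.061 for TFAM (0.734).

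Banhasasim-tang against Yijung-tang called 0.188%, 0.206% and 0.346% of all genes from low to high dose, and the fifth test was TEFM at the high dose, with 12.1, 17.6 and 11.8 CPM in Banhasasim-tang against 11.5, 10.7 and 11.5 CPM in Yijung-tang (0.29 ± 0.13, edgeR adjusted p = 0.41). At that dose 1916 of all genes had an unadjusted p under 0.05. Cimicifuga against citrus peel called 0%, 0% and 0.886% of all genes and had 0 factors at an unadjusted p under 0.05. At its low and medium doses 258 and 237 genes had an unadjusted p under 0.05, with 0 and 1 DESeq2 calls. The interval of the fold change, from the same shared estimate of spread, lay within 1.5-fold in 89 of the 90 tests. The exception was SLIRP in aconite against bupleurum high (0.29).

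The difference between dose effects was tested within each set as high minus low of one extract against high minus low of the other. None (0) of 30 tests passed in edgeR, 3 had an unadjusted p under 0.05, and DESeq2 called 0. Over all genes 1.8% passed for aconite against bupleurum, 0.115% for cimicifuga against citrus peel and 0% for Banhasasim-tang against Yijung-tang, while 1062 genes of the last reached an unadjusted p under 0.05 and DESeq2 called 3. For aconite against bupleurum 1962 genes reached an unadjusted p under 0.05. SUPV3L1 differed by 0.17 ± 0.08 (edgeR adjusted p = 0.351) and TFB1M by 0.26 ± 0.13 (edgeR adjusted p = 0.408) between the aconite and bupleurum dose effects. The intervals were 0.02 to 0.32 and 0.00 to 0.51. TEFM differed by 0.44 ± 0.19 between the formulas (edgeR adjusted p = 0.755).

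Aconite high is also where RNA of the mitochondrial genome itself moved most among the comparisons with vehicle. The 2 mitochondrial rRNAs together had 139085, 141013 and 121855 CPM at aconite high, against 12642, 11312 and 11799 CPM in vehicle. The 13 messages together had 45227, 43600 and 29877 CPM at aconite high, against 92348, 75419 and 83179 CPM in vehicle. MT-RNR1, the small rRNA that TFB1M methylates, rose by 4.56 ± 0.12 on the log2 scale and MT-RNR2, the large rRNA, by 3.27 ± 0.10. Of the 13 messages 11 fell and 2 did not pass, with a median log2 fold change of -1.24, MT-ND4 among them at -1.60 ± 0.16. Aconite high 2, which stands apart in the factors, does not in the rRNA sum, at 141013 CPM against 139085 and 121855 CPM in the other two libraries. Against bupleurum high, from the same set, 11 of 13 messages fell (median -1.14) and both rRNAs rose. When the fit held just the groups compared, the falling messages numbered 5 against vehicle and 3 against bupleurum high, and both rRNAs still rose (2 of 2) in each.

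**Figure D5:**
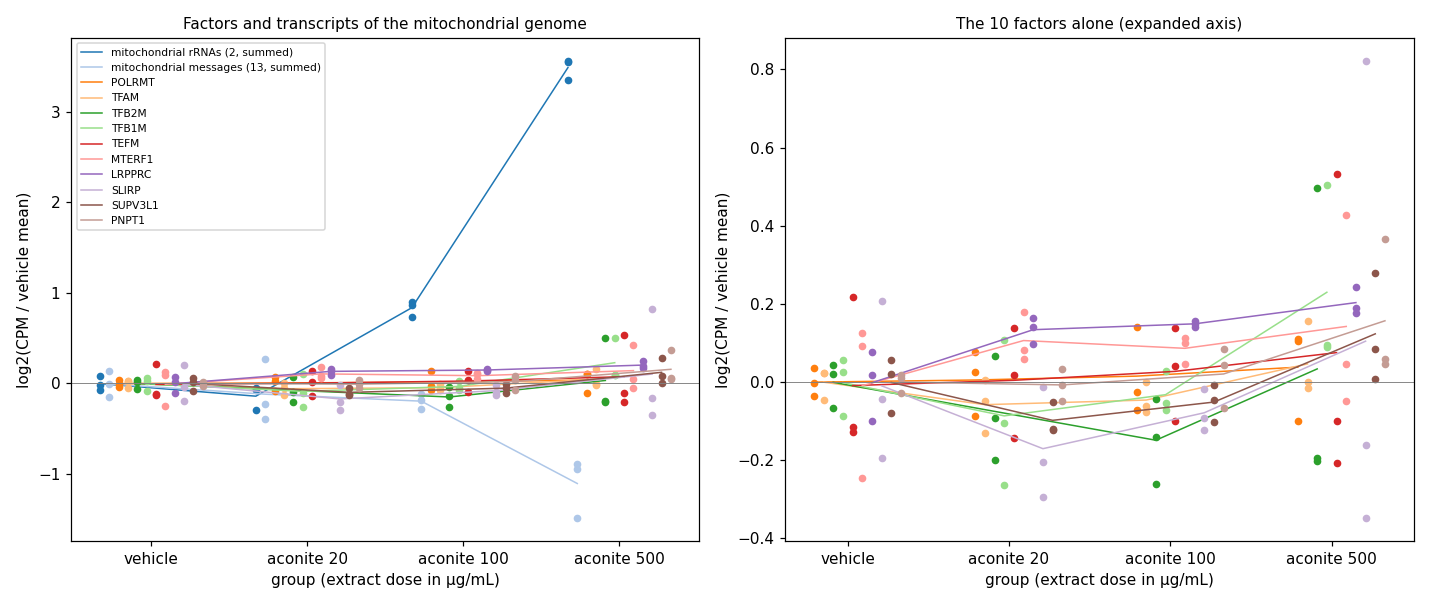
Summed mitochondrial rRNAs, summed mitochondrial messages and the 10 factors, as log2 of CPM over the vehicle mean (y axis), in vehicle and in aconite at 20, 100 and 500 µg/mL (x axis). Points are libraries and lines join means. The right panel shows the 10 factors alone on an expanded axis. Fold changes of the factors at 500 µg/mL against vehicle lie between 0.04 and 0.22 with all libraries, beside 4.56 for MT-RNR1.

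The factors did not share that size of change. All 10 had positive log2 fold changes at aconite high against vehicle, from 0.04 (POLRMT) to 0.22 (TFB1M), with a median of 0.12 against 0.00 over all genes tested. Without aconite high 2, 5 of the 10 were positive and the median was 0.01. LRPPRC then stood at 0.20 and TFB1M at 0.083, whereas SLIRP (-0.25), TFB2M (-0.21), TEFM (-0.16), MTERF1 (-0.02) and TFAM (-0.018) turned negative. At aconite medium, where MT-RNR1 rose by 1.32 ± 0.11 and MT-RNR2 by 0.76 ± 0.09, 5 of the 10 were positive and the median was -0.01. LRPPRC and SLIRP, which hold messages stable, stood at 0.20 ± 0.06 and 0.18 ± 0.17 at aconite high, where the messages fell. SUPV3L1 and PNPT1, which degrade RNA, stood at 0.12 ± 0.05 (edgeR adjusted p = 0.125) and 0.16 ± 0.07 (edgeR adjusted p = 0.1), and at 0.039 and 0.04 without aconite high 2.

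Genes of neighbouring steps were read from lists chosen with earlier results of these data known. Of 24 genes of mitochondrial RNA processing, 6 rose and 0 fell at aconite high against vehicle, with a list median of 0.14 against 0.00 over all genes, of which 1414 of 16484 rose and 1201 fell. PRORP and ELAC2, the nucleases that free tRNAs at their front and back ends, had log2 fold changes of 0.24 ± 0.07 and 0.14 ± 0.05, and FASTKD1 and FASTKD3, of a family of mitochondrial RNA-binding proteins, had 0.32 ± 0.08 and 0.30 ± 0.10. The other two were TBRG4, of the same family, and the protease LONP1. Against the low dose, FASTKD1 (0.27 ± 0.08), the rRNA methyltransferase MRM2 (0.25 ± 0.07) and the pseudouridine synthase PUS1 (0.26 ± 0.08) rose, and against bupleurum high FASTKD1 alone (0.30 ± 0.08). The 3 of 24 and 1 of 24 stand beside 957 and 974 of all 16484 genes that rose in these comparisons. The count of 6 was 1 without vehicle 2 and 2 without vehicle 1 or aconite high 2, and the 3 against low dose were 0 without aconite low 1, 1 without aconite high 2, 7 without aconite high 3 and 9 without aconite high 1. Without bupleurum high 1 the single call against bupleurum was lost (0), and without aconite high 1 or 3 it became 10 or 8. Over all genes, the fit without aconite high 1 called 2983 against the low dose and 3074 against bupleurum high.

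Of 14 genes of mitochondrial DNA replication, DNA2, a nuclease and helicase, rose at aconite high against vehicle (0.26 ± 0.09). POLG, the replicative polymerase, fell against the low dose (-0.21 ± 0.05) and against bupleurum high (-0.20 ± 0.05), where PRIMPOL, a primase and polymerase, rose (0.52 ± 0.15). Leaving out single libraries moved the rises to between 0 and 2 against vehicle and 0 and 3 against bupleurum high, and both falls of POLG were lost (0) without aconite high 2, that against bupleurum high also without bupleurum high 2. The rise of DNA2 was lost without vehicle 1, vehicle 2 or aconite high 3 and that of PRIMPOL without bupleurum high 1, bupleurum high 2 or aconite high 2 (0 rises each). None (0) of the 3 other mTERF genes passed in these 3 comparisons in edgeR or DESeq2, with 0 of their 9 tests at an unadjusted p under 0.05. Among 14 upstream regulators, 12 were tested, and GABPB2, a subunit partner of GABPA, fell at all 3 aconite doses against vehicle, by 0.36 ± 0.10 at the low, 0.39 ± 0.10 at the medium and 0.42 ± 0.10 at the high dose. Within the library set, 0 of the 12 rose or fell at aconite high against low dose, or against bupleurum at the low, medium or high dose. Against vehicle, set and extract cannot be told apart. NRF1 had a log2 fold change of 0.01 ± 0.07 and GABPA 0.06 ± 0.09 at aconite high, and neither passed. When the fit held just the groups compared, 0 genes of the processing, replication and regulator lists passed at aconite high against vehicle.

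The patterns of the 3 members with the widest range were compared with those of 9297 genes by Pearson correlation over the 19 group means, which share vehicle, extract sets and library quality. SLIRP was most like TIMM10, a mitochondrial import chaperone (r = 0.93), GNG5 (0.92) and NDUFB9, a subunit of respiratory complex I (0.92). TFB1M was most like HAX1 (0.96), ENTR1 (0.94) and AATF (0.91), and TEFM like TMEM230 (0.88), MYCBP (0.87) and LRRC1 (0.86).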

How the data were processed

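RNA sequencing of HT29 cells was analysed from the gene table that the authors deposited, which holds expected counts (estimated counts per gene) without normalization. Per the submitters' processing notes, the tools were RSEM 1.3.3, STAR 2.7.3a, Trim Galore 0.6.5 and FastQC 0.11.9, with build GRCh38. Which annotation and strand setting the counting used is not given in the sources used here. Of 270 columns, 60 matched labelled samples and 210 were not used. Expected counts, 8.68% of them not whole, were rounded to whole numbers, which RSEM's sharing of reads between similar genes leaves approximate. Total counts ran between 10.35 and 40.05 M per library.

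The 57 libraries of 19 groups were fitted together in edgeR 4.0.16 (R 4.3.3) with filterByExpr by group, TMM scaling and the quasi-likelihood test, so all groups shared the estimate of spread. The common biological coefficient of variation was 8%. P-values were adjusted by Benjamini-Hochberg over the 16484 genes of each of 36 comparisons, at a threshold of 0.05. The 3 tests of dose effects against each other, and the alternatives for gene lists, were added after the data were seen. Standard errors are the absolute log2 fold change over the square root of F. CPM relate counts to TMM-scaled library totals, and CPM per kb divide by the exon union of GENCODE release 29. Alternatives were DESeq2 1.42.0, no filter, a fit of the compared groups alone, a replicate block, leaving out each library, and leaving out 4 called here those that stand apart (aconite high 2, Banhasasim-tang high 2, vehicle 1 and bupleurum medium 2). The 4 were named without a cutoff. Their root mean square deviations from the group mean were 0.61, 0.55, 0.36 and 0.39, and Banhasasim-tang high 3, which was kept, had 0.43. The fit was tested on simulated data.

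The members and gene lists were chosen with earlier results of these data known. All 10 members are named, and of each list up to 4 genes with the smallest adjusted p per comparison, with a few others named after their values were seen. For the 3 members with the widest range, the 3 genes of at least 10 CPM with the highest correlation are named. Replicate numbers were taken to pair libraries where every correlation of same-numbered deviations passed 0.1. This held in 2 of the comparisons, aconite with bupleurum medium (r of 0.341, 0.493 and 0.114) and cimicifuga with citrus peel medium (0.211, 0.401 and 0.541), and rests on the data and not on a label. The replicate block was fitted in all comparisons, and except against vehicle on 1 library set alone.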

Additional observations from a re-analysis of the deposited data

Results flagged for a closer look

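Bojungikgi-tang, with 1 library per dose, entered no test, and its 3 libraries were set beside the vehicle libraries as values. For 3 of the 10 factors all 3 libraries lay above the highest vehicle library, as did 12.1% of all 16484 genes tested, while 11.9% of all genes lay wholly below vehicle. MTERF1 had at least 18.4 CPM (up to 19.1) in Bojungikgi-tang against at most 17.3 CPM in vehicle. LRPPRC had at least 281.7 CPM (up to 307.4) against at most 279.8 CPM in vehicle. PNPT1 had at least 71.9 CPM (up to 78.8) against at most 71.7 CPM in vehicle. The other 7 factors overlapped vehicle, and 0 lay wholly below it. LRPPRC and MTERF1 are also the members that were positive in all 18 comparisons with the same vehicle libraries, and Bojungikgi-tang forms a library set of its own, so that set and extract cannot be told apart.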

How the results depend on the processing

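Calls of single factors depended on the fit. Against vehicle the count of 3 became 1 without a filter on low counts, 5 with DESeq2, 2 with the 4 libraries that stand apart left out and 0 when the fit held just the compared groups. It ran from 0 (without vehicle 1) to 6 (without aconite high 1) when single libraries were left out. For high against low dose the count of 2 became 1 with the 4 libraries that stand apart left out and 0 with only the compared groups, and ran from 1 to 4 (without aconite high 1) without single libraries. For extracts of one set the count of 0 became 1 without a filter and ran from 0 to 4 (without aconite high 1). For dose effects against each other it was 0 in each setting run. With the replicate block the fit gave 3 calls against vehicle, 0 for high against low dose and 0 between extracts, and it changed no other count of factors. The block was fitted in all comparisons, although replicate numbers paired libraries in 2 of them only. Except against vehicle, it was fitted on 1 library set (18 libraries), so the effects of block and smaller fit cannot be told apart there. The call without a filter against vehicle and those for high against low dose were SLIRP (Banhasasim-tang low -0.38, aconite 0.34, Banhasasim-tang 0.52). SLIRP in aconite high against low dose turned to -0.089 without aconite high 2 (up to 0.56 without aconite high 1) and to -0.075 with the 4 libraries left out. Of 414 settings of 36 factor results, 361 kept direction and side of the threshold, 29 lost the call, 22 gained one and 2 turned; the cause was not tested.

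Counts over all genes moved by over 1.5 times in 30 of 36 comparisons without single libraries, 29 without a filter, 28 with only the compared groups, 18 with the block, 18 with the 4 libraries left out and 16 with DESeq2. Aconite high against vehicle called 2615 genes (1828 to 3004 without single libraries, 185 with only the compared groups), and high against low dose 1787 (1087 to 2983, 119, and 819 with the block). Aconite against bupleurum high called 1625 genes (893 to 3074 without single libraries). Depth limits TFB1M most, with as few as 104 counts in a library.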

Other observations

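In the formulas a mitochondrial rRNA moved against vehicle in the other direction than in aconite, and by less. MT-RNR1, the small mitochondrial rRNA, fell in Yijung-tang by 0.50, 0.54 and 0.47 on the log2 scale at the low, medium and high dose, and in Banhasasim-tang by 0.55 and 0.51 at the low and medium dose (edgeR, adjusted p under 0.05). The 13 mitochondrial messages had median log2 fold changes against vehicle of -0.36, -0.35 and -0.02 in Yijung-tang and -0.28, -0.32 and -0.24 in Banhasasim-tang from low to high dose. In each of these comparisons 0 of the 13 passed, whereas at aconite high 11 fell, with a median of -1.24. The formulas form a library set apart from vehicle, so set and extract cannot be told apart. Within the set, MT-ATP8, a subunit of the ATP synthase, rose by 1.33 in Yijung-tang high against low dose and fell by 1.13 in Banhasasim-tang against Yijung-tang at the high dose. PUS1, a pseudouridine synthase, fell in Yijung-tang medium (-0.33) and Banhasasim-tang low (-0.32) against vehicle, and the rRNA methyltransferase MRM1 fell in Yijung-tang medium (-0.31). PRORP fell in cimicifuga high against low dose (-0.30), and PRORP (0.29) and ELAC2 (0.22) rose in bupleurum high against vehicle. The calls in this paragraph were not followed through the other settings.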
